A study of Mus musculus with 2 samples.

Results

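The genes Klf9, Klf10, Klf11, Klf13, Klf14 and Klf16 encode the Krüppel-like factors that carry a Sin3-binding repressor domain. They were chosen by symbol, with earlier results of these data known, and all 6 were found among the 35129 gene symbols of the deposited tables. RNA sequencing had been carried out on primary hepatocytes, liver cells put into culture straight from C57BL/6 mice, after infection with a virus for expression of KLF14 (Ad-KLF14) or with its control, which the labels call Ad-GFP and the design text an empty vector. The age and sex of the mice, the virus dose and the time after infection are not given in the sources used here, and infection with an adenovirus is shared by both groups. Each group holds 1 library, so the design allows no test between the groups, and the differences given are those between 2 libraries. Triplicates are mentioned in the design text, but no label says how they relate to the 2 tables or whether a table pools several cultures or animals.

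Krüppel-like factors bind GC-rich sequences and CACCC boxes through zinc fingers at their carboxyl end, and the part before the fingers decides which cofactors are brought to the DNA. In the subgroup described here a short helix near the amino end docks onto Sin3a, a scaffold that carries histone deacetylases, and the genes so bound are often repressed. Klf9, Klf13, Klf14 and Klf16 are closely related to one another, while Klf10 and Klf11 were first described as early genes induced by TGF-beta. Klf14 is an intronless gene held to be a retrotransposed copy of Klf16, and in human genetics its locus is linked to type 2 diabetes and HDL cholesterol.

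Klf14 was 44223-fold higher in the Ad-KLF14 library, and the other 5 members did not go one way. Klf10 was 2.29-fold higher and Klf9 1.46-fold higher, whereas Klf13 was 7.28-fold lower, Klf16 2.63-fold lower and Klf11 1.74-fold lower.

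The sequences before the transcription start are shown for Klf9, Klf11 and Klf13, the members with an entry in the RefSeq promoter table, since GC and CACCC boxes near the start are among the places where factors of this family bind, beside enhancers and introns that are not shown. They are the 250 bases before the start on the strand of the gene, in the GRCm38.p6 build, which is not the mm8 build named for the libraries. Capitals mark GC boxes (GGGCGG or, on the other strand, CCGCCC) and CACCC boxes (CACCC or GGGTG). Klf9 lies at chr19:23140976-23141225 on the plus strand, Klf11 at chr12:24651121-24651370 on the plus strand and Klf13 at chr7:63938916-63939165 on the minus strand.
Klf9: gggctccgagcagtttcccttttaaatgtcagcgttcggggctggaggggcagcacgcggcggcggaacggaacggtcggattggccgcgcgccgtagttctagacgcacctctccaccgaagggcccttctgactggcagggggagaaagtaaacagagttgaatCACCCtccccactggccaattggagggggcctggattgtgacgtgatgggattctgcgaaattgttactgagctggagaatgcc
Klf11: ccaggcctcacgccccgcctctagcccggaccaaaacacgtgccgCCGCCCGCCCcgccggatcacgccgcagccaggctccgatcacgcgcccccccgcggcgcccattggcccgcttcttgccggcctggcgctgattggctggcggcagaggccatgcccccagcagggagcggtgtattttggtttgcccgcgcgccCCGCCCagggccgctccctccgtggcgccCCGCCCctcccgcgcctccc
Klf13: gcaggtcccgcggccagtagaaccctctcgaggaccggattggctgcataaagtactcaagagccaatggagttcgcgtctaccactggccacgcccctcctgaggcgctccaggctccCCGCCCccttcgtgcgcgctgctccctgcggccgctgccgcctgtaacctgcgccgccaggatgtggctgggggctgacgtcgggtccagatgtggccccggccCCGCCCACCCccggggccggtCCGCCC

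The Klf11 sequence held 4 GC boxes, 2 of which overlap each other, no CACCC box and 1 E-box (CACGTG, not in capitals), the element read by the clock proteins. The Klf13 sequence held 3 GC boxes and 1 CACCC box, which overlaps one of the GC boxes, and its last GC box ends at the base before the start. The Klf9 sequence held no GC box and 1 CACCC box. Among 32851 promoter sequences of the same length, 32.7% held at least 1 GC box on either strand, 8.47% held 3 or more, 52% held a CACCC box and 6.02% an E-box. The GC content was 59.6% for Klf9, 76.8% for Klf11 and 71.6% for Klf13, against a median of 52.4% over the 32851 sequences. A GC-rich sequence holds such letters more often. Klf11 and Klf13, both with several GC boxes, were lower in the Ad-KLF14 library, and Klf9, without one, was higher. With 3 genes this is a description of the letters and says nothing of binding.

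**Figure D1:**
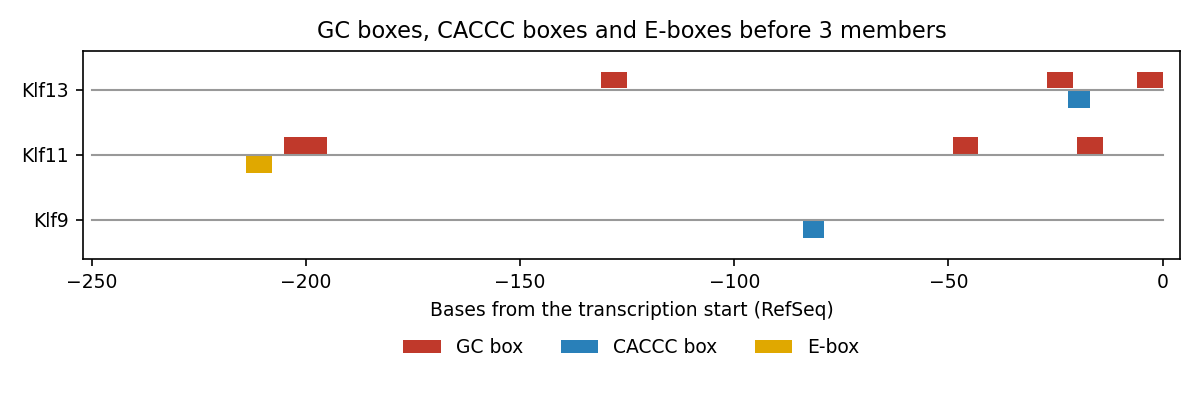
Positions of GC boxes (red, on the line), CACCC boxes (blue, below it) and E-boxes (yellow, below it) in the 250 bases before the RefSeq start of Klf9, Klf11 and Klf13, with the distance from the start in bases on the x axis. Klf11 holds 4 GC boxes and Klf13 holds 3, while Klf9 holds none.

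Levels are FPKM, reads per kilobase of gene model scaled to 1000000 reads, and can be compared between genes. The Klf14 level with Ad-KLF14 is scaled to the gene model too, not to the length of the viral insert. That limits its comparison with other genes. The steps of the values gave a total of 11151711 reads for Ad-KLF14 and of 11311344 for Ad-GFP. Intervals are 95% Clopper-Pearson intervals of the recovered reads, which cover counting error only and not the spread between cultures. Such an interval excluded a ratio of 1 for 73.6% of the 12394 genes measured with recovered reads, 34.8% above it and 38.9% below it, so the same finding for all 6 members, 3 on either side, is no result about them. For counts of genes, a gene was called apart from 2-fold on with log2(FPKM + 1), among the 12419 genes whose mean reached 1 FPKM. By that rule 6.37% of the genes were higher with Ad-KLF14 and 8.99% lower, 15.4% in all. Of the 6 members, 2 were called higher (Klf10 and Klf14) and 2 lower (Klf13 and Klf16), but Klf14 reached the mean of 1 FPKM only through the library in which the virus supplies it. Of the other 5, which were above 1 FPKM in the Ad-GFP library as well as in the Ad-KLF14 library, 1 was called higher and 2 lower.

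The library check is Klf14 itself. Its level was 13164 FPKM with Ad-KLF14, above that of every other gene of the library, and 0.298 FPKM with Ad-GFP. The values correspond to 435986 and 10 reads if the gene model has 2970 bases, which is the length of the intronless Klf14 gene in RefSeq, and to 217993 and 5 reads at a model of 1485 bases, the shortest that the values allow. At the longer model Klf14 took 3.91% of all reads of the Ad-KLF14 library (95% Clopper-Pearson interval 3.90% to 3.92%). The ratio of 44223 has a counting interval of 24046 to 92220, or 18950 to 136198 with the smaller read numbers. Insert and endogenous gene cannot be told apart in these values, so the Ad-KLF14 level says nothing of the endogenous gene, and in the Ad-GFP library Klf14 ranked at place 14395 from the top, where 18263 genes had a value above 0.

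**Figure D2:**
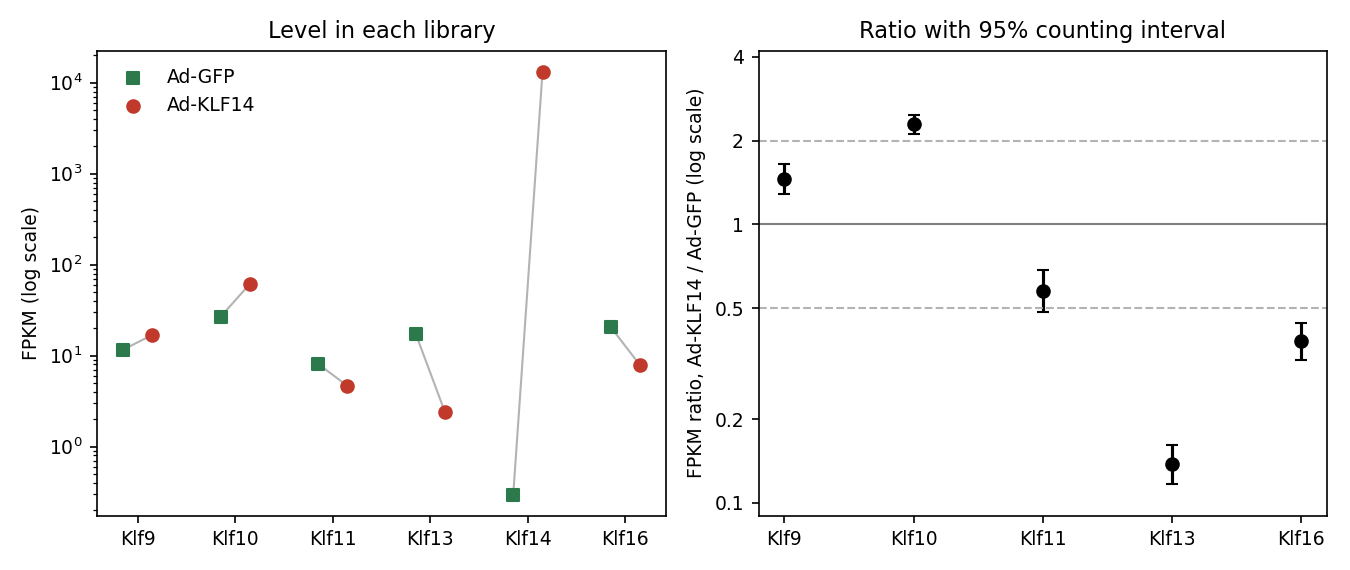
Left, the FPKM of each member in the Ad-GFP library (green squares) and the Ad-KLF14 library (red circles), 1 library each, on a log axis. Right, the FPKM ratio of Ad-KLF14 to Ad-GFP on a log axis with its 95% counting interval for the 5 members besides Klf14, with dashed lines at 2-fold; Klf13 and Klf16 lie below the lower line and Klf10 above the upper one.

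Klf16, the nearest relative of Klf14, was lower in the Ad-KLF14 library. It encodes a GC-box binding repressor also known as the dopamine receptor regulating factor. It was at 7.84 FPKM with Ad-KLF14 and at 20.6 FPKM with Ad-GFP, from 232 and 618 reads, which makes it 2.63-fold lower (interval 2.25 to 3.07). As for Klf14, the shortest model that the values allow, of 1326 bases, gives smaller numbers, 116 and 309 reads, with a ratio of 0.381 and an interval of 0.305 to 0.473. Of the genes at a mean level within 2-fold of that of Klf16, 9.9% were at least 2-fold lower. Its log2(FPKM + 1) difference of −1.29 was lower than that of 95.3% of all genes measured. With a pseudocount of 5 FPKM in place of 1 the difference came to −0.995, just short of 2-fold.

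Because Klf14 reads were so many, the sequence it shares with the other members bears on their values. In the longest coding transcripts of GENCODE, the coding bases of Klf14 and Klf16 aligned over 241 bases with 83.8% identity, the longest block of Klf14 with any member. The longest run that both transcripts share without a difference, shown because a read without mismatches would have to fit inside it to match both, has 20 bases, from base 799 of the Klf14 coding sequence and base 592 of that of Klf16.
Klf14 and Klf16: agcgaccacctgaccaagca
Klf14 and Klf13 shared a run of 21 bases outside their coding sequences. No window of 30 bases occurred in both Klf14 and any of the other 5 transcripts, in the sense direction and without mismatches. The transcripts compared are those of the mouse genes, and the sequence of the viral insert was not compared. The read length and the mismatches allowed by the aligner are not given in the sources used here. At the longer models Klf16 had 232 reads in the library with 435986 Klf14 reads, fewer than in the control.

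Klf13 had the largest negative difference of the members. It encodes a factor first studied in T lymphocytes, where it drives Ccl5. Its level was 2.40 FPKM with Ad-KLF14 and 17.4 FPKM with Ad-GFP, from 171 and 1262 reads, so that it was 7.28-fold lower (interval 6.20 to 8.59). The gene model that these values imply has 6396 bases, the exact length of its longest GENCODE transcript, of which 13.6% is coding. On log2(FPKM + 1) the difference was −2.44, and only 40 of the 12419 genes measured had a lower one. Among genes of a mean level within 2-fold of its own, 10.1% were at least 2-fold lower. It passed from the third of the 5 members besides Klf14 in the Ad-GFP library to the last in the Ad-KLF14 library. The lymphocyte marker Cd3e was listed at 0 in both libraries, and the pan-leukocyte Ptprc was at 0.602 against 0.656 FPKM (Ad-KLF14 given before Ad-GFP here and below), so these markers of the cells in which Klf13 is best known were near or at 0 in both.

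Klf9, which glucocorticoids and thyroid hormone induce in many tissues, was 1.46-fold higher, under the 2-fold limit. Its level was 16.9 FPKM with Ad-KLF14 and 11.6 FPKM with Ad-GFP, from 616 and 429 reads (interval of the ratio 1.29 to 1.65). The log2(FPKM + 1) difference of 0.51 was exceeded by 20.1% of the genes measured. The gene model implied by the values has 3263 bases and its nearest reference transcript 4486, so its read numbers match the reference less closely than those of the other members.

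Klf10 was the most abundant of the 5 members besides Klf14 in either library. The gene is induced by TGF-beta and, in the liver, follows the circadian clock and restrains gluconeogenic genes. It was at 61.5 FPKM with Ad-KLF14 and at 26.8 FPKM with Ad-GFP, from 2087 and 924 reads, a ratio of 2.29 (interval 2.12 to 2.48). The log2(FPKM + 1) difference was 1.17, and 4.40% of the genes measured had a larger one. Of genes of a level within 2-fold of its own, 5.49% were at least 2-fold higher.

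Klf11, the closest relative of Klf10 and a regulator of insulin gene transcription in the pancreas, lay on the other side. Its level was 4.66 FPKM with Ad-KLF14 and 8.10 FPKM with Ad-GFP, from 207 and 365 reads, or 1.74-fold lower (interval 1.46 to 2.07). It was not called at 2-fold, with a log2(FPKM + 1) difference of −0.69. The counting intervals of Klf10 and Klf11 lie on opposite sides of 1, as is common here, with 34.8% of the genes measured above 1 and 38.9% below it.

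**Figure D3:**
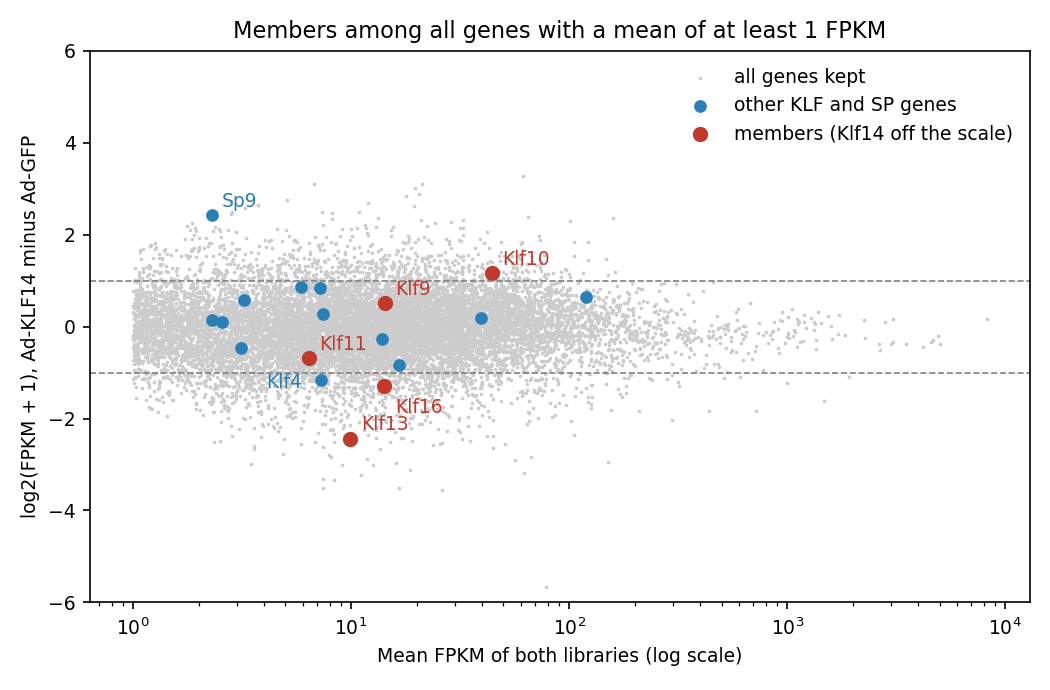
Each grey point is 1 of the genes whose mean reached 1 FPKM, with that mean FPKM of both libraries on a log x axis and the difference of log2(FPKM + 1), Ad-KLF14 minus Ad-GFP, on the y axis; dashed lines mark 2-fold. The members are red (Klf14, at a difference of 13.31, is off the scale) and other KLF and SP genes blue, and Klf13 lies near the lower edge of the cloud at −2.44.

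The 5 genes besides Klf14 had similar summed levels in both libraries, with a different makeup. Their FPKM summed to 93.3 in the Ad-KLF14 library and to 84.6 in the Ad-GFP library, a ratio of 1.10. Klf10 made up 65.9% of the sum with Ad-KLF14 and 31.7% with Ad-GFP. Klf13 went the other way, at 2.57% of the sum against 20.6%, and Klf16 was at 8.41% against 24.4%. The remaining shares were 18.1% against 13.7% for Klf9 and 4.997% against 9.58% for Klf11. Without Klf10 the other 4 summed to 31.8 against 57.8 FPKM, a ratio of 0.551.

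In the Ad-GFP library the order of levels was Klf10, Klf16, Klf13, Klf9, Klf11 and Klf14. Among the upper 5 the steps between neighbours were under 2-fold, with Klf10 1.30 times as high as Klf16 (interval 1.17 to 1.44) and Klf16 1.18 times as high as Klf13 (interval 1.07 to 1.30), whereas Klf11 stood 27.2 times above Klf14 (interval 14.6 to 57.3). In the Ad-KLF14 library the order was Klf14, Klf10, Klf9, Klf16, Klf11 and Klf13, and Klf10 stood 3.63 times above Klf9 (interval 3.32 to 3.98). Every interval between neighbours excluded 1, but they cover counting error only, and the spread between cultures is not known. With Ad-KLF14 the level of Klf14 was 141 times the sum of the other 5, and with Ad-GFP that sum was 284 times the level of Klf14. The factor of 141 rests on the gene model of Klf14 and not on the length of the viral insert.

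**Figure D4:**
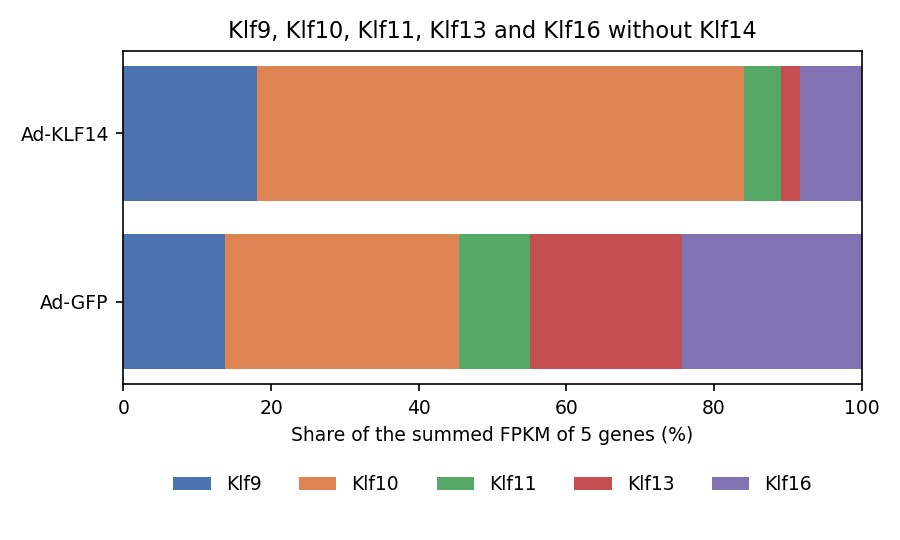
Bars show the share of each of 5 members in their summed FPKM, in percent, for the Ad-GFP and the Ad-KLF14 library (1 library each). The Klf10 part takes 31.7% of the lower bar and 65.9% of the upper one, and the Klf13 part 20.6% and 2.57%.

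The Sin3-HDAC complex, through which these factors are held to repress, showed no common direction. All 17 listed genes were measured, 9 with a difference above 0 and 8 below, and their median log2(FPKM + 1) difference was 0.11 against −0.03 over all genes. The scaffold genes were close together, Sin3a at 17.8 against 20.4 FPKM and Sin3b at 12.3 against 13.6 FPKM. Of the histone deacetylases, Hdac1 was 1.36-fold higher (43.3 against 31.8 FPKM) and Hdac2 1.70-fold lower (26.8 against 45.6 FPKM). The histone-binding Rbbp4 and Rbbp7 were 1.15-fold and 1.20-fold lower, and Suds3, a bridging subunit, 1.24-fold lower. Arid4a, which encodes a retinoblastoma-binding subunit, was the only one of the 17 called at 2-fold, at 20.7 against 6.87 FPKM (3.02-fold higher, interval 2.71 to 3.37). Its paralogue Arid4b was 1.36-fold higher. Brms1l was at 2.62 against 5.31 FPKM, 2.02-fold lower without the pseudocount and under 2-fold with it, while its paralogue Brms1 was 1.33-fold higher. The accessory subunits Sap130, Sap18, Sap30 and Sap30l had ratios of 1.57, 1.49, 1.40 and 1.09, and the chromatin readers Ing1 and Ing2 1.41 and 0.959.

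**Figure D5:**
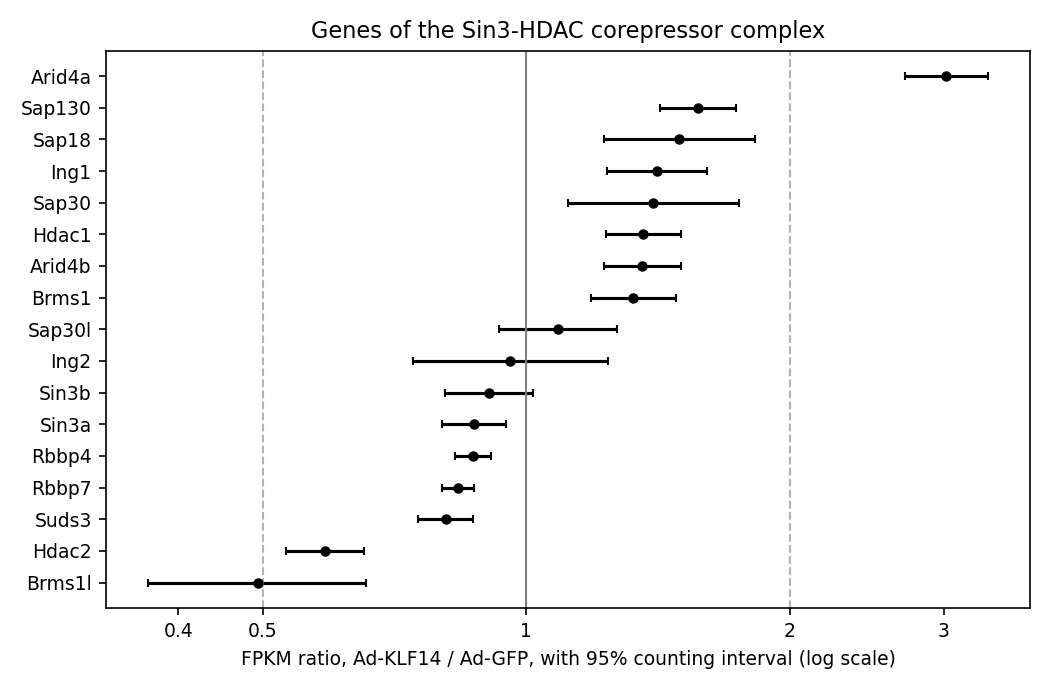
FPKM ratio of Ad-KLF14 to Ad-GFP on a log x axis for the 17 genes of the Sin3-HDAC list, sorted by ratio, with 95% counting intervals and dashed lines at 2-fold. Arid4a stands at 3.02, and the scaffold genes Sin3a and Sin3b lie near 1.

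Signals known to govern Klf10, Klf11 and Klf9 were set beside them. Of 12 TGF-beta genes 9 were below 0, 4 were called lower and 0 higher, with a median of −0.77. Tgfb1, the ligand, was 2.76-fold lower (12.2 against 33.6 FPKM) and the receptor gene Tgfbr1 2.51-fold lower. The other receptor gene of the list, Tgfbr2, was 1.52-fold higher (36.3 against 23.8 FPKM). Ski and Smad7, the rest of the 3 genes above 0, were 1.46-fold and 1.32-fold higher. The TGF-beta target Ctgf was 8.02-fold lower. In the same library Klf10 was higher and Klf11 lower, Klf11 under the 2-fold limit. Whether TGF-beta, the clock or the hormones took part in the differences of the members was not tested. Of 13 clock genes 9 were above 0, and Per1, Per2, Cry1 and Nr1d1, which encode repressors of the clock, were called higher at 2.44-fold, 2.99-fold, 2.19-fold and 2.53-fold. Of the other repressors of the list, Per3, Nr1d2 and Bhlhe40 were 1.36-fold, 1.29-fold and 1.37-fold lower, under the 2-fold limit. Cry2 was 1.93-fold higher (18.8 against 9.72 FPKM), also under that limit, and Bhlhe41 had a ratio of 1.01. The rest of the list, Clock, Tef, Arntl and Dbp, had ratios of 1.40, 1.17, 1.07 and 0.746, the last with an interval of 0.427 to 1.29. None of the 13 clock genes was called lower and their median was 0.22. Of 12 glucocorticoid and thyroid hormone genes 7 were above 0 and 5 below, with a median of 0.12. The kinase gene Sgk1 (2.86-fold) and Per1, counted in both lists, were called higher and none lower. Tat and Thrsp had ratios of 1.68 and 1.55, Fkbp5 and Dusp1 1.12 and 1.06, and Tsc22d3 was 1.60-fold lower. The glucocorticoid receptor gene Nr3c1 was at 17.9 against 19.6 FPKM, and the thyroid hormone receptor genes Thra and Thrb were 2.18-fold and 1.28-fold lower, Thra under 2-fold with the pseudocount.

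Genes reported elsewhere as controlled by a member were few and went both ways. Of 9 listed, 7 reached a mean of 1 FPKM, and Drd2, a target of Klf16, was listed at 0 in both libraries. Ccl5, driven by Klf13 in T cells, was at 56.6 against 56.0 FPKM (ratio 1.01, interval 0.867 to 1.18). Klf13 itself was 7.28-fold lower. The coactivator gene Ppargc1a, for which control by Klf9 has been described in hepatocytes, was 4.63-fold higher (2.58 against 0.558 FPKM). It reached the mean of 1 FPKM only through the Ad-KLF14 library. Monoamine oxidase A, Maoa, a target of Klf11, was 2.14-fold lower (13.6 against 29.0 FPKM). Smad7, the inhibitory Smad that Klf10 and Klf11 repress, was at 7.69 against 5.83 FPKM (ratio 1.32). Tgfbr2 and Apoa1, both linked to Klf14, had ratios of 1.52 and 0.882, and Pck1, linked to Klf10, was at 0.480 against 0.642 FPKM. Whether a member controls any of these genes in these cells was not tested.

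The other branches of the family had their own differences. Of 6 measured activator KLF genes 4 were above 0, and Klf4 was the one called, at 4.12 against 10.4 FPKM (2.52-fold lower). Klf6, the most abundant KLF gene in the Ad-GFP library, was at 145 against 92.9 FPKM. Among the CtBP-binding factors Klf3 was 1.84-fold lower (11.7 against 21.4 FPKM) and Klf12 was at 2.47 against 2.14 FPKM. Of 5 measured SP genes Sp9 was called higher, at 4.56 against 0.0314 FPKM, though it reached the mean of 1 FPKM only through the Ad-KLF14 library and its Ad-GFP value rests on 2 recovered reads. The broadly expressed Sp1 and Sp3 had ratios of 0.821 and 1.14. Whether the members differ from these branches was not tested.

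Of the nearest genes on either side of a member, Grhl1 was the one called at 2-fold. The neighbours Rexo1 and Abhd17a of Klf16 had ratios of 1.54 and 1.49, while Klf16 was 2.63-fold lower. The neighbours Otud7a and Trpm1 of Klf13 were listed at 0 in both libraries, as were Odf1 beside Klf10 and Tsga13 beside Klf14, and Trpm3 beside Klf9 was at 0.0133 FPKM with Ad-KLF14 and listed at 0 with Ad-GFP. Beside Klf11, the epithelial transcription factor gene Grhl1 was 6.42-fold higher (12.9 against 2.01 FPKM) and Cys1 was at 1.37 against 0.770 FPKM. Azin1 beside Klf10 had a ratio of 1.31, Smc5 beside Klf9 was 1.43-fold lower and Mkln1 beside Klf14 1.22-fold lower. Genes with the levels most like a member, by the distance in log2(FPKM + 1) over the 2 libraries, were Thbs1, Hspb11 and Csn3 for Klf13 (0.011 to 0.097), Gsta4, Pih1d1 and Cds2 for Klf16 (0.036 to 0.064) and Xab2, Cd3eap and Dbr1 for Klf10 (0.041 to 0.077). The gene nearest to Klf14, Car2, was at a distance of 7.56.

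All 9 hepatocyte markers were measured in both libraries and none was called at 2-fold. Albumin, Alb, was at 4172 against 5115 FPKM. The liver transcription factor gene Cebpa was at 73.9 against 36.5 FPKM, 2.02-fold higher without the pseudocount and just under 2-fold with it, and Tat was 1.68-fold higher. Macrophage markers summed to 171 against 80.5 FPKM over 6 genes, nearly all of it from Cd68 (160 against 71.1 FPKM). Of the others, Marco was at 5.10 against 4.50 FPKM, Emr1 at 4.09 against 2.78 FPKM and Csf1r at 1.04 against 1.05 FPKM. Clec4f and Vsig4 were at or under 0.679 FPKM in both. Endothelial markers summed to 3.85 against 2.85 FPKM over 4 genes, cholangiocyte markers to 3.46 against 6.26 FPKM with Krt7 listed at 0, and the 4 stellate markers to at most 0.283 FPKM. The part of these cells in the differences of the members was not tested. In bulk RNA, fewer cells of a type and less RNA per cell cannot be told apart.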

How the data were processed

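Total RNA was extracted with Trizol and made into Illumina TruSeq RNA libraries, per the labels' protocols. Bowtie 0.12.2 and the mm8 build are named per the submitters' processing notes, and the design text also names other tools, in words that speak of retina and may not all belong to these libraries. How reads were counted, on which gene models and with which strand setting, is not given in the sources used here. The authors deposited 1 table of FPKM values per library.

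Within a gene, the 2 libraries stood to each other as 2 whole numbers, up to 1 shared factor, in all 16944 genes above 0 in both (relative tolerance 1e-11). That shared factor gave the read totals up to a whole multiple. The multiple was the largest at which most implied gene lengths were whole: 76.7% at the totals used, 42% at 2 times those totals. Reads per gene were the smallest whole numbers with a whole gene length, multiplied by up to 6 where that brought the length nearer to a coding transcript of GENCODE. On simulated libraries of 12798 genes with lengths within 3% of the reference the totals were recovered, 98.4% of read numbers were exact, 0% too high, and 96.4% of the intervals held the true ratio. Real gene models can differ more.

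Folds and ratios are of the FPKM values as deposited, and counts use log2(FPKM + 1) with a mean of at least 1 FPKM. The authors' values were not rescaled. Named were the members, all Sin3 complex genes, the listed genes at least 2-fold apart or with the largest differences, the nearest genes with curated names on each side in RefSeq (GRCm38.p6, used for order only) and the 3 genes nearest in level; further listed genes were named for their role after values were seen, and some listed genes are not reported here. The members and lists were chosen with earlier results of these data known. Alternatives were pseudocounts of 0.1 and 5 FPKM, a trimmed mean of log ratios (30% from each end), the upper quartile, a sum of 1000000, a total without Klf14, other filters and, added after the data were seen, the smallest read numbers. Python 3.11.15, scipy 1.17.1 and Biopython 1.88 were used.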

Additional observations from a re-analysis of the deposited data

How the results depend on the processing

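With 1 library per group no replicate could be left out, and no paired analysis was possible because each group holds 1 library. Every member kept its direction under the alternatives run. Scaling to a trimmed mean, the upper quartile, a sum of 1000000 or a total without Klf14 raised the Ad-KLF14 values by a factor of at most 1.04 relative to Ad-GFP, and with these and a pseudocount of 0.1 FPKM all member ratios stayed inside their counting intervals. With a pseudocount of 5 FPKM the ratios were 2.09 for Klf10, 0.737 for Klf11, 0.330 for Klf13, 2486 for Klf14 and 0.502 for Klf16, all nearer to 1, since the added constant takes a larger part of a low value. Under it 1 member in place of 2 was called lower, and 295 genes were called higher and 467 lower, against 791 and 1117. The median log2 difference of the Sin3 complex genes, 0.11, ran from 0.095 with a pseudocount of 5 FPKM to 0.26 over those whose mean reached 5 FPKM. The read totals rest on the steps of the values, and Klf14, at 10 reads or fewer in the Ad-GFP library, is the member whose ratio the depth limits most.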

Other observations

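GC boxes were also counted before the measured genes with a single start in the RefSeq promoter table, which leaves out many of the 12419 genes measured. Of 1146 genes with 3 or more GC boxes in the 250 bases before the start, 13.4% were at least 2-fold lower with Ad-KLF14 and 6.63% at least 2-fold higher, with a median log2(FPKM + 1) difference of −0.16. Of 2820 genes with 1 or 2 GC boxes, 8.62% were lower and 7.2% higher, and of 2424 genes with none, 6.85% were lower and 6.23% higher. Klf11 and Klf13 belong to the genes with 3 or more and Klf9 to those with none, while Klf10, Klf14 and Klf16 have no entry and could not be placed. GC boxes go with GC content, and the part of either in these shares was not tested.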
